A study of Macaca radiata with 4 samples.

Results

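The epidermal growth factor (EGF) family was examined in the corpus luteum, the ovarian gland that forms from the follicle after ovulation and makes progesterone under the drive of luteinizing hormone (LH). The genes were chosen by symbol, as 7 ligand genes (AREG, EREG, BTC, EGF, HBEGF, TGFA and NRG1) and 3 receptor genes (EGFR, ERBB2 and ERBB3). The annotation of the array paired 9 of these 10 genes with 19 probe sets, out of 14132 genes and 52766 probe sets in all. EREG was not matched and was not analysed here.

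Luteal RNA of bonnet monkeys (Macaca radiata), all female, was hybridised to 4 arrays designed for the rhesus macaque, 2 for rhLH and 2 for PBS. In the rhLH group (replicates 3 and 4) animals had 150 µg/kg of CET on luteal day 7, then, 24 h on, 20 IU/kg of rhLH to replace LH, and the gland was taken 8 h later. The PBS group (replicates 1 and 2) had the same CET dose and times with PBS in place of rhLH. CET therefore acted in both groups, where per the labels it blocked the animals' own LH secretion, and no group without CET was analysed here.

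The ligands of this family are made as membrane-bound precursors that metalloproteases release from the cell surface. AREG, EREG, BTC, EGF, HBEGF and TGFA bind the receptor kinase EGFR, while NRG1 binds ERBB3. ERBB2 has no known ligand of its own and works as the partner of the other receptors, and ERBB3, whose own kinase is weak, signals through such partners. In follicles of several mammals the LH surge induces AREG, EREG and BTC in granulosa cells, and these ligands pass the signal on to neighbouring cells through EGFR and the ERK kinases.

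Values below are probe set signals on a linear scale, and differences are of log2(signal + 16), rhLH minus PBS. A probe set was kept for the test when its log2 value, averaged over the 4 arrays, exceeded the 40th percentile, a signal of 90.7. Folds are of signal + 16, and levels are not compared between probe sets. PBS replicate 1 stood apart from the other arrays: its correlation with them across the 31659 kept probe sets was 0.752 to 0.780, against 0.940 to 0.947 among the other 3. Its ratio of 3′ to 5′ actin control signal, a measure of RNA integrity, was 11.2, against 1.59 and 1.54 on the rhLH arrays and 1.49 on PBS replicate 2. For GAPDH it was 2.28 and 1.62 on the rhLH arrays, against 3.23 and 1.88 on the PBS arrays. For EF1A PBS replicate 1 hardly differed: 0.933 and 0.884 on the rhLH arrays, against 1.06 and 0.949 on the PBS arrays. Most control probe sets of bacterial sequence were also lowest on PBS replicate 1. The bioD 3′ signal was 4349 on it and 14030 to 16880 on the others, and the dap 3′ signal was 116 against 1068 to 1529. Not all went this way. The thr 5′ signal was 252.7 against 158 to 179.1, while the thr 3′ signal was 87.9 against 326.9 to 508.5. The median signal was 136 on both rhLH arrays, against 186 on PBS replicate 1 and 139.5 on PBS replicate 2. Luteal identity was visible in the steroid transport gene STAR, with signals of 52570 and 51660 on the rhLH arrays and 24283 and 54566 on the PBS arrays. Differences of kept probe sets are therefore also given against PBS replicate 1 and then PBS replicate 2. These 2 sets of differences share the rhLH arrays and are set side by side without a test of their likeness.

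Of the 19 probe sets, 10 passed the filter, and they stood for 8 genes. EGF had no kept probe set. The limma test across all kept probe sets gave 0 calls at an adjusted p of 0.05 (0% of 31659), so 0 family probe sets passed. At an unadjusted p under 0.05 there was 1, that of AREG, where 2.02% of all kept probe sets reached this level (1.90% of genes by their brightest probe set). The absence of calls depended on PBS replicate 2. Without it PBS replicate 1 was the sole control, and calls arose inside and outside the family, so they are not read as a trait of it. In that fit the brighter BTC probe set stood at −2.77, EGFR at 4.34, the brighter ERBB2 probe set at 1.06 and the brightest ERBB3 probe set at −1.53. AREG stood at −0.93, TGFA at −1.18, NRG1 at −0.86 and HBEGF at −0.25.

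AREG, which encodes amphiregulin, was lower on both rhLH arrays than on either PBS array. Its only probe set, MmugDNA.10712.1.S1_at, had signals of 6813 and 13095 on the rhLH arrays, against 17988 and 28762 on the PBS arrays. The groups did not overlap, as was the case on the lower side for 17.7% of all kept probe sets. All 4 combinations of an rhLH and a PBS array were therefore negative. The smallest difference was −0.46 (rhLH replicate 4 against PBS replicate 1) and the largest −2.08 (rhLH replicate 3 against PBS replicate 2). The pooled difference was −1.27 (SE 0.48, limma adjusted p = 0.919, within 0.0936 to 1 over the alternatives). Of all kept probe sets 3.51% lay at least as far down in the pooled difference. The share was 21.3% against PBS replicate 1 alone and 0.531% against replicate 2 alone, where the AREG differences were −0.93 and −1.60. Without rhLH replicate 3 the pooled difference was −0.80. In bulk tissue, for AREG as for every gene here, fewer cells of a type and less RNA per cell cannot be told apart.

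Betacellulin, encoded by BTC, is also a ligand of EGFR, and its brighter probe set had the most negative difference of the kept family members. MmugDNA.738.1.S1_at had signals of 159.5 and 388 on the rhLH arrays, against 1796 and 393 on the PBS arrays. Thus rhLH replicate 4 and PBS replicate 2 were nearly level (a difference of −0.02), and the groups were separated by that margin only. The PBS arrays differed from each other 4.43-fold and the rhLH arrays 2.30-fold. The pooled difference was −1.69 (SE 0.81, limma adjusted p = 0.919), −2.77 against PBS replicate 1 and −0.62 against replicate 2. With the arrays centred on their medians the groups overlapped, at a difference of −1.47. The other BTC probe set, MmuSTS.641.1.S1_at, stood at 113 and 91.5 on the rhLH arrays and at 141 and 111.5 on the PBS arrays. Its groups overlapped and its difference was −0.27 (SE 0.57, −0.42 and −0.12 against the PBS arrays), so the size seen on the brighter probe set was not shared.

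HBEGF, the heparin-binding ligand, did not separate the groups. MmuSTS.4072.1.S1_at had signals of 661.5 and 990.0 on the rhLH arrays, against 968 and 946 on the PBS arrays. The rhLH arrays thus lay on either side of the PBS arrays, which were almost equal. The difference was −0.24 (SE 0.36, limma adjusted p = 0.919), with −0.25 and −0.22 against the PBS arrays, and it turned to 0.05 without rhLH replicate 3. The other HBEGF probe set had signals under 90.7 on every array.

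TGFA encodes transforming growth factor alpha, the ligand closest in action to EGF itself. MmugDNA.20960.1.S1_at had signals of 184 and 163.5 on the rhLH arrays, against 413 and 174.5 on the PBS arrays. PBS replicate 1 was high and the other 3 arrays were alike, so the pooled difference of −0.59 (SE 0.58) averaged −1.18 against PBS replicate 1 and −0.01 against replicate 2. NRG1, the neuregulin that binds ERBB3, was dim: MmuSTS.1189.1.S1_at had signals of 59.0 and 96.6 on the rhLH arrays, against 150 and 95.8 on the PBS arrays. Its groups overlapped by a small margin between rhLH replicate 4 and PBS replicate 2, and the difference was −0.57 (SE 0.63, −0.86 and −0.28 against the PBS arrays). For TGFA and NRG1 the limma adjusted p was 0.919.

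**Figure D1:**
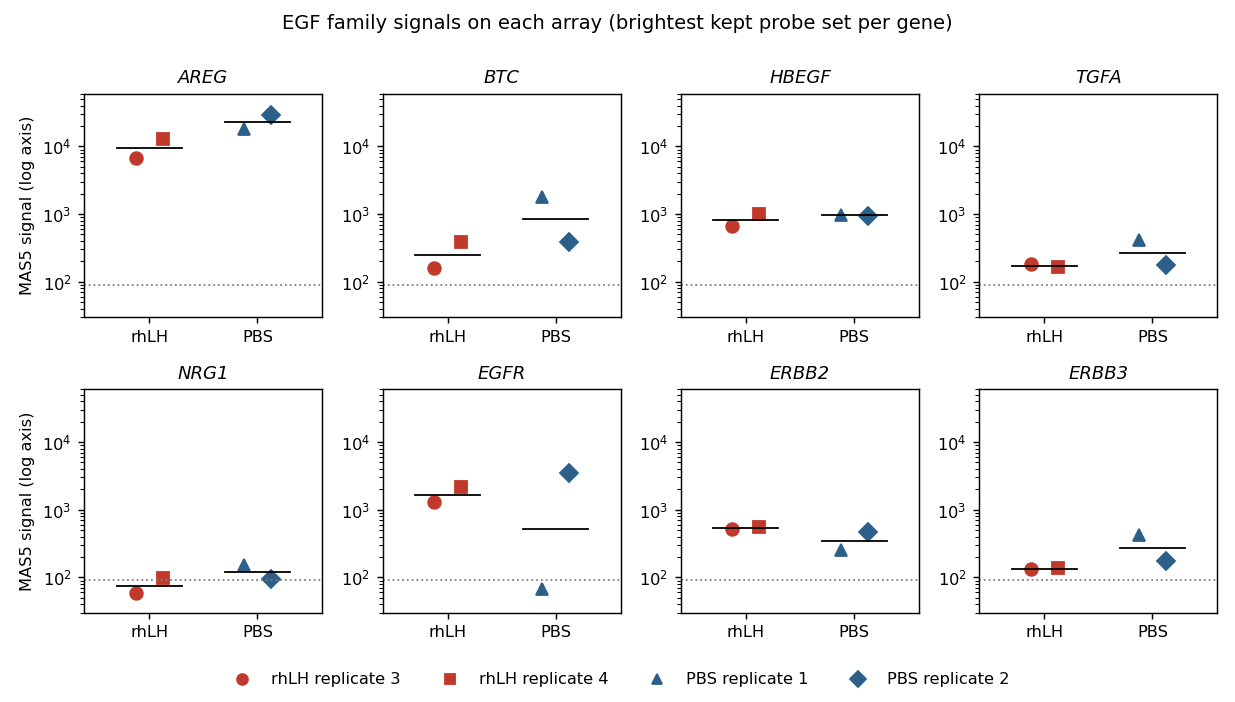
Signal of the brightest kept probe set of 8 EGF family genes on each array (log axis), with rhLH arrays at the left of each panel and PBS arrays at the right; the bar is the group mean on the log2(signal + 16) scale and the dotted line the filter level of 90.7. AREG lies at 6813 and 13095 with rhLH and at 17988 and 28762 with PBS, and EGFR differs 41.4-fold between the PBS arrays.

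Among the receptors, EGFR depended on the choice of PBS array for its direction. Its only probe set had signals of 1289 and 2180 on the rhLH arrays, against 67.8 on PBS replicate 1 and 3455 on PBS replicate 2. The rhLH values lay between the PBS values, which were 41.4-fold apart, while the rhLH arrays differed 1.68-fold. A gap between the PBS arrays this large was found for 0.0474% of all kept probe sets. EGFR stood at 4.34 against PBS replicate 1 and −1.04 against replicate 2. Against the first PBS array the limma adjusted p was 0.00166 with that array as sole control, and against the second it was 0.661. The pooled 1.65 (SE 1.62, limma adjusted p = 0.919) describes neither. Against PBS replicate 2 alone, EGFR and AREG were thus on the same side, as was also the case for BTC. The low EGFR signal occurred on the array with the actin ratio of 11.2, and the part of RNA integrity in it was not tested.

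ERBB2, the shared partner receptor, was the only kept family probe set with both rhLH arrays above both PBS arrays. MmuSTS.4735.1.S1_at had signals of 527.5 and 561 on the rhLH arrays, against 253.5 and 466 on the PBS arrays. The rhLH arrays were close to each other (1.06-fold), whereas the PBS arrays differed 1.79-fold. The difference was 0.64 (SE 0.45, limma adjusted p = 0.919), 1.06 against PBS replicate 1 and 0.22 against replicate 2. Its other probe set, MmugDNA.33063.1.S1_at, was not kept and stood at −0.22, with PBS values of 7.19 and 97.3 on either side of the rhLH values of 30.35 and 26.0.

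ERBB3, the neuregulin receptor, had 4 probe sets that did not share a direction. The brightest, MmugDNA.10912.1.S1_at, had signals of 133 and 137 on the rhLH arrays, against 421 and 174 on the PBS arrays. Its groups did not overlap, and its difference was −0.93 (SE 0.59, limma adjusted p = 0.919, −1.53 and −0.33 against the PBS arrays). The other kept probe set, MmuSTS.4736.1.S1_at, had signals of 127 and 97.8 on the rhLH arrays, against 51.8 and 150 on the PBS arrays. Its groups overlapped, and it stood at 0.27 (SE 0.70, limma adjusted p = 0.948), 0.91 against PBS replicate 1 and −0.38 against replicate 2. The 2 that were not kept stood at 1.27, with groups that did not overlap, and at −0.77. No direction is given for ERBB3 as a gene.

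The 9 probe sets that were not kept belonged to 6 genes, and 5 of them had signals under 90.7 on all 4 arrays. EGF was among these, with signals of 9.995 and 13.6 on the rhLH arrays and 26.7 and 16.3 on the PBS arrays, and a difference of −0.42 (SE 0.45). Such signals cannot be told from background here, since detection calls were not used. The 3 dim NRG1 probe sets had differences of −0.77, −0.65 and −0.81, and the dim probe sets of HBEGF and TGFA stood at −0.75 and −0.09. The adjusted p of every probe set in this group was 0.935 or more in the limma fit without a filter.

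**Figure D2:**
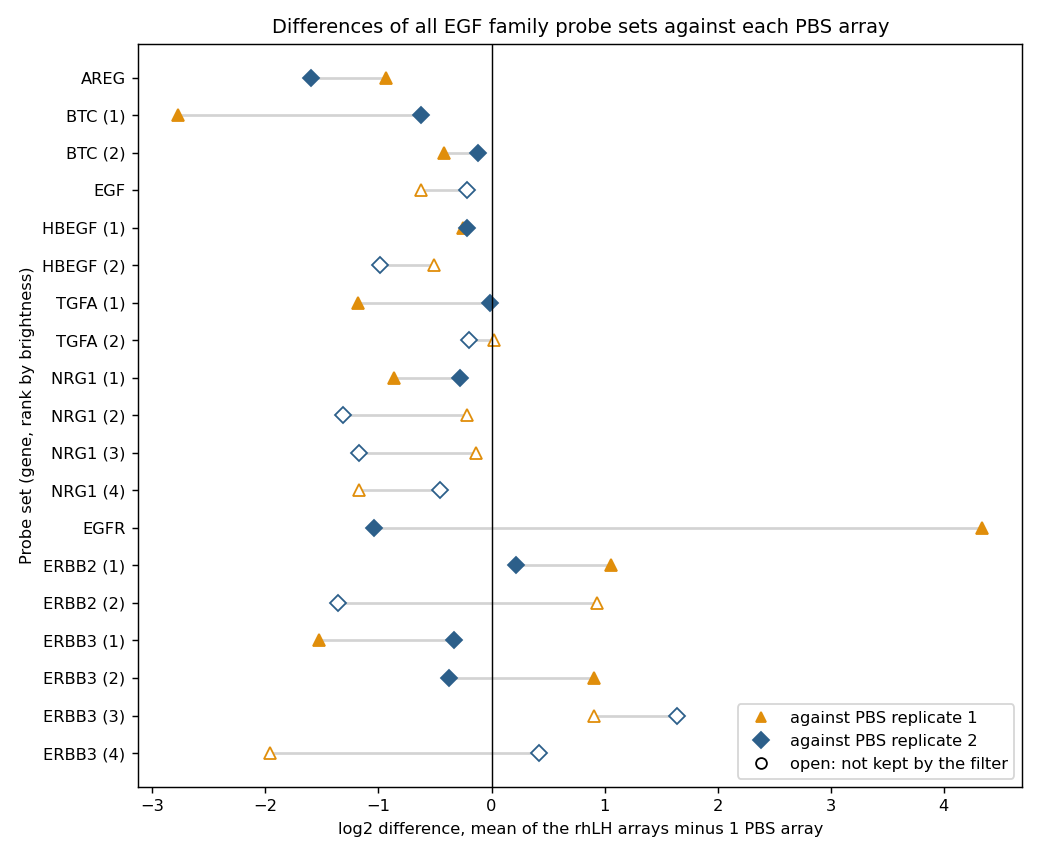
Difference of log2(signal + 16) for the 19 EGF family probe sets, as the mean of the rhLH arrays minus PBS replicate 1 (triangles) and minus PBS replicate 2 (diamonds); probe sets of a gene are numbered by brightness and open symbols were not kept. AREG lies at −0.93 and −1.60, ERBB2 (its brighter probe set) at 1.06 and 0.22, and EGFR at 4.34 and −1.04.

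With each gene represented by its brightest kept probe set, the groups did not overlap for 3 of 8 genes on the lower side (AREG, BTC and ERBB3) and for 1 on the higher side (ERBB2). Over all 10998 kept genes the shares were 16.1% and 16.3%, and over all kept probe sets they were 17.7% and 14.4%. None of the 8 met the stricter rule that every rhLH array be at least 2-fold from every PBS array, which 0.490% of kept probe sets met on the lower side and 0.344% on the higher side. The median difference over the 8 genes was −0.58, against 0.02 over all kept genes. It was −0.89 against PBS replicate 1 and −0.31 against replicate 2, where the medians of all kept genes were −0.01 and 0.00.

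All 5 kept ligand genes had a mean of the rhLH arrays below each PBS array, with TGFA at only −0.01 against PBS replicate 2. NRG1 averaged 77.8 on the rhLH arrays, under the filter level of 90.7, and passed the filter through the PBS arrays, so its place among them is a description only. Over all kept genes 26.6% were below both PBS arrays, 25.9% above both and 47.5% between them. Of the 3 receptors, ERBB3 was below both, ERBB2 above both and EGFR between them. The median over the 5 ligands was −0.59, and it was −0.43 under quantile normalization and −0.37 with the arrays centred on their medians, where the median of all kept genes was 0.25. Without PBS replicate 1 it was −0.28, and without PBS replicate 2 it was −0.93. A filter at the 70th percentile left 3 ligands with a median of −1.27. HBEGF was at −0.01 with that centring. With 5 and 3 genes, no test of ligands against receptors was made.

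**Figure D3:**
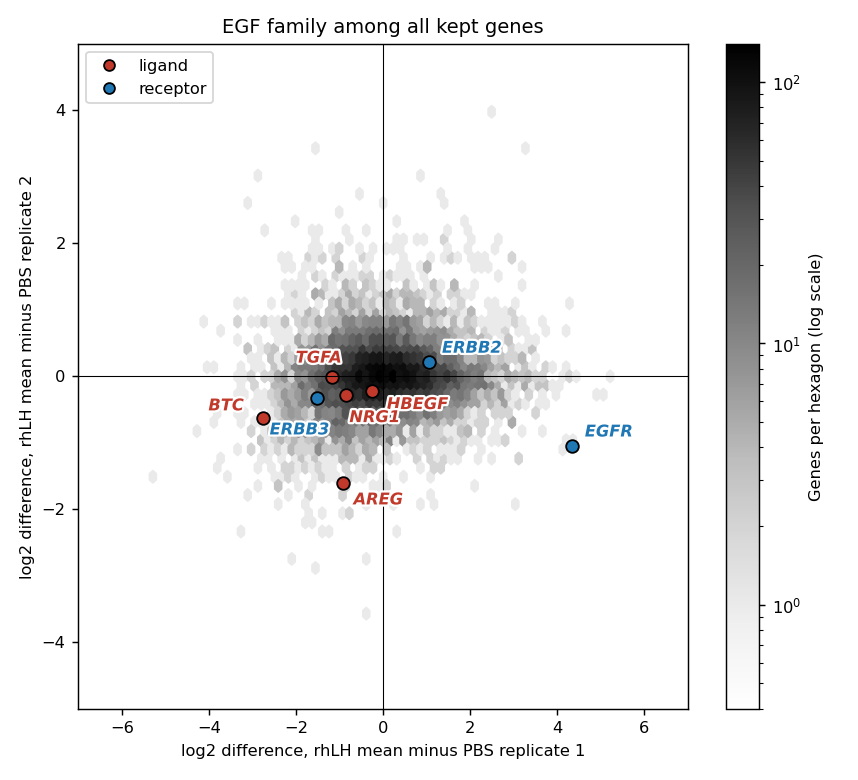
Difference of log2(signal + 16) of the rhLH mean against PBS replicate 1 (horizontal) and PBS replicate 2 (vertical) for 10998 kept genes (grey hexagons, darker for more genes) with the 8 EGF family genes marked as ligands (red) or receptors (blue). The spread is wider along the axis of PBS replicate 1. AREG lies at −0.93 and −1.60, and EGFR, at 4.34 and −1.04, lies on opposite sides of 0.

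The arrays of a group differed from each other by more than 1 on the log2 scale for 4 of the 8 genes in the PBS group (BTC, TGFA, EGFR and ERBB3) and for 1 in the rhLH group (BTC). Over all kept probe sets these shares were 37.5% in the PBS group and 8.28% in the rhLH group. For AREG the gap was 0.94 between the rhLH arrays and 0.68 between the PBS arrays. Such a gap between the rhLH arrays was reached by 9.44% of kept probe sets. AREG therefore varied between the rhLH arrays more than most probe sets did.

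The genes whose values over the 4 arrays ran most like those of AREG were CCN2, NPR3, GPRC5D, LOC698195 and P2RY4. Likeness was measured as the Euclidean distance between log2 values centred on their mean over the 4 arrays, among 10990 genes with a median distance of 1.70. CCN2, which encodes a matrix-associated growth factor, was nearest at 0.233, with signals of 3354 and 7021 on the rhLH arrays and 9097 and 12379 on the PBS arrays. NPR3, the clearance receptor for natriuretic peptides, followed at 0.239, with 162 and 401.5 on the rhLH arrays and 453 and 817 on the PBS arrays. Both had the lowest signal on rhLH replicate 3 and the highest on PBS replicate 2, as AREG did. The distances of the other 3 were 0.242, 0.328 and 0.328. With only 4 arrays, many genes can share such an order.

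Of 115 other genes in 6 lists around the receptors, 79 were kept, and 0 passed the limma test at an adjusted p of 0.05. On the lower side 18 of the 79 did not overlap between groups (22.8%), and on the higher side 9 (11.4%), where the shares over all kept genes were 16.1% and 16.3%. The genes named from each list are those with the smallest unadjusted p, unless stated otherwise. Their limma adjusted p was 0.919, except for NRG4 (0.959), ADAM10 (0.967), SPRY4 (0.921) and PTX3 (0.937).

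In the family itself, NRG2 and NRG4, further neuregulin genes, were kept out of 5 listed genes. NRG2 had signals of 95.0 and 119 on the rhLH arrays, against 196 and 155 on the PBS arrays, a difference of −0.64 (SE 0.54, −0.79 and −0.48 against the PBS arrays). NRG4 stood at −0.20 (SE 0.66) with groups that overlapped, at 0.09 and −0.50 against the PBS arrays, and at 0.02 with the arrays centred on their medians.

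The list of ligand shedding and maturation had 10 kept genes of 15 and a median of −0.02. ADAM15, a membrane metalloprotease, had signals of 1811 and 1414.5 on the rhLH arrays, against 779 and 1293.5 on the PBS arrays (difference 0.66, SE 0.39). This was 1.02 against PBS replicate 1 and 0.30 against replicate 2. Its other probe set stood at −0.02. FURIN, a protease that matures precursor proteins, had signals of 1656 and 1365.5 on the rhLH arrays, against 1937 and 2054 on the PBS arrays (−0.40, SE 0.31, −0.36 and −0.45 against the PBS arrays). These were the only members of the list whose groups did not overlap, 1 of the 10 on each side. Over all kept genes the shares were 16.1% on the lower side and 16.3% on the higher side. ADAM10, a sheddase of BTC and EGF in mice that was named for this role, stood at −0.09 (−0.37 and 0.20 against the PBS arrays). ADAM17, the main sheddase of AREG, was not matched to a probe set and was not analysed here.

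Genes that restrain or turn over the receptors had a median of −0.26 over 15 kept of 21, and the value was −0.49 against PBS replicate 1 and 0.02 against replicate 2. The groups did not overlap for 4 of the 15 on the lower side and 2 on the higher side, beside 16.1% and 16.3% of all kept genes. PTPN1, a phosphatase that acts on EGFR, had signals of 768 and 827 on the rhLH arrays, against 1215 and 1139.5 on the PBS arrays (−0.55, SE 0.32). STAM, an adaptor in the sorting of endocytosed receptors, had signals of 723 and 968 on the rhLH arrays, against 1181 and 1087 on the PBS arrays (−0.43, SE 0.34). PTPN1 differed by about as much from either PBS array (−0.60 and −0.51). STAM stood at −0.49 and −0.37 against the PBS arrays, and at −0.22 without rhLH replicate 3.

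Adaptors and kinases below the receptors had a median of 0.10 over 25 kept of 32, with 3 of the 25 not overlapping on each side, beside 16.1% of all kept genes on the lower side and 16.3% on the higher side. PIK3CB, a catalytic subunit of PI3-kinase, had signals of 405 and 478 on the rhLH arrays, against 727 and 578 on the PBS arrays (−0.54, SE 0.38, −0.70 and −0.38 against the PBS arrays). SRC, a tyrosine kinase that acts with EGFR, had signals of 367 and 278.5 on the rhLH arrays, against 199 and 196 on the PBS arrays (0.65, SE 0.45). Its other probe set stood at 0.94, and its differences against the PBS arrays were alike, at 0.64 and 0.66. The ERK kinase MAPK3 differed by 1.00, the average of 2.14 against PBS replicate 1 and −0.14 against replicate 2. It was chosen after its values were seen.

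Genes of ERK feedback and immediate response had a median of −0.54 over 17 kept of 28, and 12 of the 17 had a negative difference. The groups did not overlap for 6 genes on the lower side (35.3%) and 1 on the higher side, beside 16.1% and 16.3% of all kept genes. The list median was −0.54 when set against PBS replicate 1 and −0.63 against replicate 2, and −0.28 without rhLH replicate 3. EGR2, a zinc finger transcription factor, had signals of 126.5 and 221 on the rhLH arrays, against 455 and 935 on the PBS arrays (−1.86, SE 0.55, −1.36 and −2.37 against the PBS arrays). KLF10, a transcription factor induced by growth factors, had signals of 2525 and 3393 on the rhLH arrays, against 5457 and 4794 on the PBS arrays (−0.80, SE 0.33, −0.89 and −0.71 against the PBS arrays). SPRY1, a Sprouty protein that dampens ERK signalling, had signals of 1686 and 2542 on the rhLH arrays, against 3009 and 3366 on the PBS arrays (−0.62, SE 0.34, −0.54 and −0.70 against the PBS arrays), and it stood at −0.32 without rhLH replicate 3. PHLDA1 was the gene on the higher side, at 0.65 (SE 0.34), with 0.47 and 0.82 against the PBS arrays and 0.40 without rhLH replicate 4. Its further kept probe sets stood at 0.14, 0.32, 0.10 and 0.70. The other Sprouty genes of the list overlapped between groups. SPRY2 stood at −0.47 (−0.59 and −0.35 against the PBS arrays) and at 0.08 without rhLH replicate 3. SPRY4 stood at 0.22, with 0.55 and −0.10 against the PBS arrays. SPRY1, SPRY2, SPRY4 and PHLDA1 were chosen after their values were seen.

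Genes of the cumulus and of ovulatory follicles had a median of 0.09 over 10 kept of 14, with 5 genes on each side of 0. The groups did not overlap for 3 of the 10 on the lower side and 2 on the higher side, beside 16.1% and 16.3% of all kept genes. ADAMTS1, a protease that remodels the matrix around the oocyte, had signals of 2825 and 3752 on the rhLH arrays, against 6319 and 5622 on the PBS arrays (−0.87, SE 0.32, −0.95 and −0.79 against the PBS arrays). Its other probe set stood at −0.56. RUNX1, a transcription factor of luteinizing granulosa cells, had signals of 979 and 1397.5 on the rhLH arrays, against 752 and 518 on the PBS arrays (0.89, SE 0.39, 0.63 and 1.15 against the PBS arrays). Its other probe set stood at 0.46. The next genes act in the hyaluronan matrix of the cumulus, and were chosen after their values were seen. TNFAIP6 had signals of 647 and 610.0 on the rhLH arrays, against 2785 and 871 on the PBS arrays (−1.29, SE 0.58). This was −2.12 against PBS replicate 1 and −0.46 against replicate 2, and its other probe set stood at −0.32. HAS2 had signals of 74.4 and 80.3 on the rhLH arrays, both under the filter level, against 268 and 139 on the PBS arrays (−1.17, SE 0.60). It stood at −1.61 and −0.74 against the PBS arrays, and its other probe set stood at −0.08. PTX3, of the same matrix, stood at −0.22 with groups that overlapped (−0.54 and 0.09 against the PBS arrays), and VCAN at 0.61 (0.81 and 0.42), with further probe sets on both sides of 0.

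**Figure D4:**
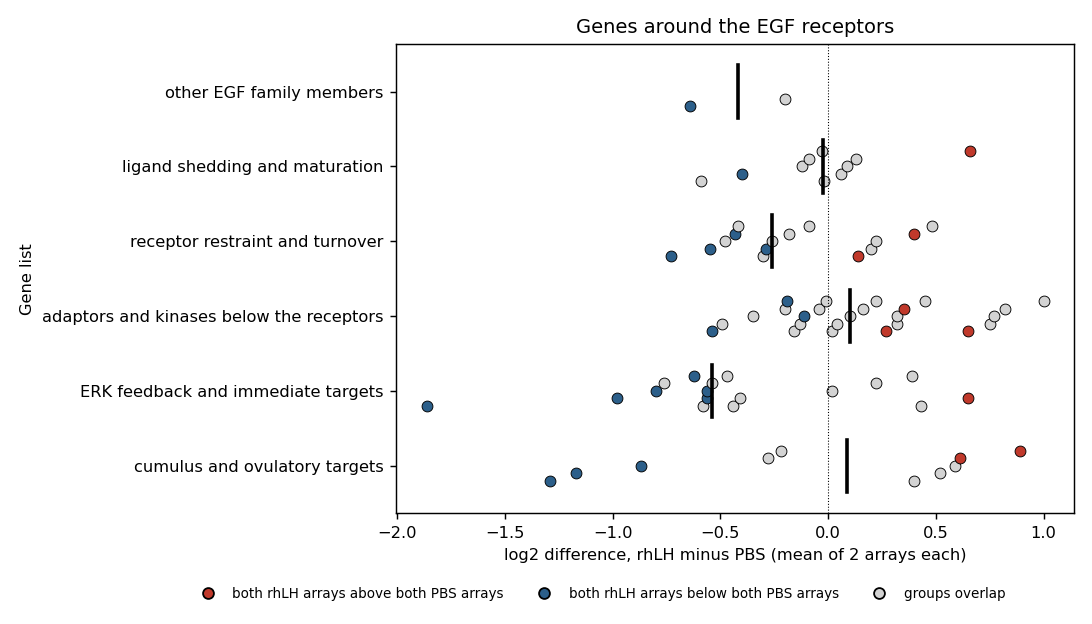
Difference of log2(signal + 16), rhLH minus PBS, for the 79 kept genes of 6 lists around the EGF receptors; each point is a gene by its brightest probe set, coloured by whether both rhLH arrays lie above (red) or below (blue) both PBS arrays, and the bar is the list median. The median is −0.54 for ERK feedback and immediate targets and between −0.42 and 0.10 for the other 5 lists.

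For markers of the cells of the gland, the summed signal was lowest on PBS replicate 1 in 7 of 8 lists. Bright signals were lower on that array as a whole. Its 99th percentile of signal was 8886, against 12459 on PBS replicate 2 and 12091 and 12271 on the rhLH arrays. A sum is weighted to the brightest markers of a list, so the pattern of the markers cannot be told apart from that of the array. For lutein and granulosa cells (7 markers kept of 12) it was 149062 and 160598 on the rhLH arrays, against 69354 on PBS replicate 1 and 149190 on PBS replicate 2. The groups did not overlap for 4 of these 7 markers, all on the higher side, beside 16.3% of all kept genes. For endothelial cells (10 kept of 10) it was 24092 and 26113 on the rhLH arrays, against 19262 and 28357 on the PBS arrays, and for macrophages (7 of 8) it was 10436 and 6359, against 4692 and 9859. Of the lymphocyte markers 3 of 8 were kept, and the defining genes NKG7 and CD79A were not. Against PBS replicate 2 alone, the median difference was 0.25 for the lutein and granulosa list, 0.03 for the endothelial, −0.25 for the macrophage, −0.24 for the pericyte and −0.22 for the fibroblast list. The 1 theca marker kept, CYP17A1, stood at −0.93 against that array. The part of cell composition in the family's differences was not tested.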

How the data were processed

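The deposited values are probe set intensities on a linear scale, made by the authors with MAS5 per the submitters' processing notes. No source used here gives the scaling target, and no detection calls were used. The 2% trimmed means were 500.0 on all 4 arrays, so no further normalization was applied. Of 52865 probe sets, 99 controls were set aside. Symbols came from GEO's platform annotation, which gave 1 symbol to 24956 of 52766 probe sets, several to 361 and none to 27449, and 0 of those with several held a family gene. No genome or sequence table was used, so no coordinates or sequences are given, and mismatches of rhesus probes to bonnet monkey transcripts were not examined.

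Groups were taken from the sample titles. Values of log2(signal + 16) were fitted by lmFit of limma 3.58.1 (R 4.3.3), followed by a two-sided eBayes test with a trend and Benjamini-Hochberg adjustment over the 31659 kept probe sets. The fit was also run on simulated arrays with known changes. That run required only that median estimates lay near those changes. Its calls are not given, so it is no check of the calls here. SEs are limma's. An exact permutation test of 2 arrays against 2 cannot go below p = 0.333 and was not used. The labels give 2 per group without naming the animal of each array, so p-values reflect array-to-array spread only, which may in part be technical. The number of arrays limits the precision of every value. Alternatives covered normalization, pseudocount, filter, variance prior, array weights, probe set choice and each array left out. Each gene is shown by the brightest of its kept probe sets.

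The members, the lists and the tests were chosen with earlier results of these data known. All members are named. From each list the 2 genes with the smallest unadjusted p are named, with any further gene at least 1 apart on the log2 scale from both PBS arrays, and the 5 genes nearest to AREG.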

Additional observations from a re-analysis of the deposited data

How the results depend on the processing

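Of the differences of the 10 kept family probe sets, 3 changed sign under an alternative: HBEGF was 0.05 without rhLH replicate 3 (−0.52 to 0.05 with each array left out), and without PBS replicate 1 EGFR was −1.04 and the second-brightest ERBB3 probe set −0.38 (up to 4.34 and 0.91 with another array left out). Of the alternatives for all 10, values passed the limma threshold only with PBS replicate 1 as the sole control. There EGFR stood at 4.34, the brighter BTC probe set at −2.77, the brightest ERBB3 probe set at −1.53 and the brighter ERBB2 probe set at 1.06. Their adjusted p reached 1 under other alternatives. In that fit the lone PBS array is assumed to vary like the rhLH arrays. It also gave 8169 calls over all kept probe sets and 22 of the list genes, where leaving out any other array gave 0, as in the fit of all 4 arrays, so the ranges were 0 to 8169 and 0 to 22. AREG was on the lower side in every alternative, from −1.74 (without rhLH replicate 4) to −0.80, with no call. Of the 10 kept family probe sets, 3 did not overlap on the lower side and 1 on the higher side, beside 17.7% and 14.4% of all kept probe sets. Under the 2-fold rule both counts were 0, beside 0.49% and 0.344%. With no filter, which brings in the dim probe sets, the counts were 6 and 2. With each array left out in turn they were 5 to 6 on the lower side and 1 to 3 on the higher side. Fewer arrays make separation easier. Shares over all probe sets are not given with no filter or with an array left out, so those counts are not read against a background. Centring arrays on their medians put the median of all kept probe sets at 0.19, against −0.04 as deposited. Of 77 list medians recomputed, 19 moved by more than the spread between arrays. No paired analysis was possible because the groups share no replicate numbers. No library depth applies to arrays, and the dim probe sets limit what can be said of EGF.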
